A study of Drosophila melanogaster with 40 samples.

Results

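The comparison described here set 6 pools of heads from flies fed 2-AAPA against 7 pools from flies fed mitoQ, 13 of the 40 samples of the series, chosen by their labels. All were WT (Oregon Red) male Drosophila melanogaster, 10 days old, fed for 24 h before their heads were collected. Acute 2-AAPA was given at 10 µM and acute mitoQ at 100 µM, and 7 pools fed 0.2% DMSO by the same schedule served as the baseline. The labels call DMSO the vehicle, whereas the study's list of drugs gives ethanol as the solvent of mitoQ, and no pool was fed ethanol alone. Compound, dose and solvent therefore cannot be told apart. Pools held 13 to 20 heads for 2-AAPA, 20 or 21 for mitoQ and 20 for DMSO. A pool is the replicate, and the heads were separated from frozen bodies on sieves.

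2-AAPA is an inhibitor of the enzymes that keep glutathione and thioredoxin reduced. Drosophila has no glutathione reductase, and its thioredoxin reductase, Trxr1, keeps both pools reduced. MitoQ is a ubiquinone joined to a lipophilic cation that accumulates in mitochondria and is reduced there by the respiratory chain, and it acts as an antioxidant in the inner membrane. One compound thus acts on the enzymes that recycle thiols and the other on mitochondrial oxidants, and the comparison asks which transcripts in the head differ between the flies fed with each for a day.

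No feature separated the groups past the threshold. Of 11189 genes and transposable element families tested with edgeR's quasi-likelihood F test, 0 (0%) reached an adjusted p under 0.05, and the smallest adjusted p was 0.9999. The smallest adjusted p from the same test was 0.369 with only the 13 pools compared in the fit, and 0.080 with all 40 pools. DESeq2 called 0 of 17075, with 418 at an unadjusted p under 0.05. With edgeR, there were at an unadjusted p under 0.05 282 features (2.52%), of which 195 (1.74%) had the higher value in acute 2-AAPA and 87 (0.778%) the lower. The log2 fold change lay above 0 for 52.4% of all features, with a median of 0.01, which the TMM scaling centres. In the plot of all features, the names farthest from 0 belong mostly to genes that were high in 1 library only.

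**Figure D1:**
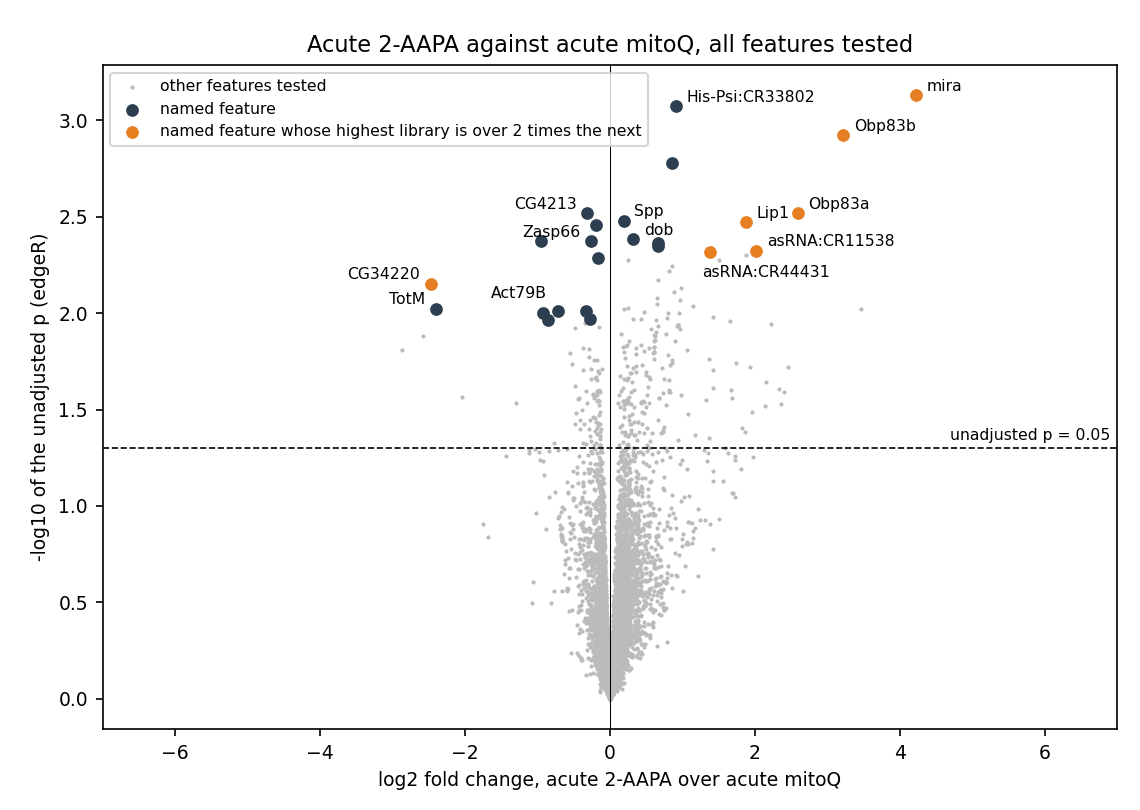
Each point is 1 of the 11189 features tested, with the log2 fold change (acute 2-AAPA over acute mitoQ, 6 against 7 pools) on the x axis and -log10 of the unadjusted edgeR p on the y axis. The 24 named features are dark, or orange where the highest library of the higher group exceeded the next by more than 2 times (7 features), and the 282 features above the dashed line have an unadjusted p under 0.05, with 0 passing adjustment.

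The intervals, taken per feature and not adjusted for the number tested, give the range of differences that the data allow. They do not give the size of difference that would pass the adjusted threshold. The median half-width of the 95% interval of a log2 fold change was 0.27. For 80.9% of all features, and for 93.2% of the 7668 features with a mean CPM (counts scaled to the size of each library) of at least 10, the whole interval lay within a 1.5-fold difference in either direction. For 98.2% of the features above that level it lay within 2-fold. Among the 3521 features below 10 CPM the share within 1.5-fold was 54.2%, and the share within 2-fold was 83.2%, so the intervals of weakly expressed genes were wider.

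Total counts were 25568670 to 28173268 in acute 2-AAPA, 24777116 to 29228264 in acute mitoQ and 24494239 to 28874297 in acute DMSO pools. Ribosomal RNA took 3.71% to 7.71% of the counts in acute 2-AAPA and 1.68% to 7.36% in acute mitoQ. For none of total counts, features detected, ribosomal share, mitochondrial share and the share of the 10 highest features did the difference between the drug groups exceed the spread between pools (exact two-sided permutation test, adjusted p 0.727 to 0.874, smallest p the design allows 0.000583). The acute 2-AAPA pools were less alike among themselves, with a median correlation of log2 CPM to their group of 0.975 to 0.984, against 0.986 to 0.990 in acute mitoQ and 0.958 to 0.986 in acute DMSO. Markers of the head were abundant in all pools, with ninaE, the rhodopsin of the outer photoreceptors, at 33816 to 40675 CPM in acute 2-AAPA and 36079 to 42915 CPM in acute mitoQ.

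Acute 2-AAPA replicates 3 and 6 were examined on their own. Replicate 3 had 9 features at least 4-fold above and 25 at least 4-fold below the median of the other 5 pools, and the highest median correlation to its group. The features farthest above the mean log2 CPM of the other acute 2-AAPA pools were Yp1, FBgn0038052, CG45489, Yp2 and snoRNA:Psi18S-1295. Yp1 and Yp2 encode yolk proteins, which are made by females. Yp1 reached 11 CPM in replicate 3 and 0.149 to 2.59 CPM in the other acute 2-AAPA pools, against 0.0385 to 1.45 CPM in acute mitoQ, and Yp3, another yolk protein gene, averaged near values (70.8 ± 11.7 CPM in acute 2-AAPA and 71.9 ± 10.2 CPM in acute mitoQ, SD).

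Replicate 6, the pool of 13 heads, had 97 features at least 4-fold above and 14 at least 4-fold below the median of the other pools, and the highest shares of ribosomal RNA (7.71%) and mitochondrial counts (0.141%) of its group. The features farthest above the mean log2 CPM of the others were CheB38b, Scp1, snoRNA:Me28S-A2564, CG13428 and FBgn0085364. FBgn0085364 was at 532 CPM in replicate 6, 668 CPM in replicate 2 and 8.37 to 39.4 CPM in the other 4 acute 2-AAPA pools, against 13.6 to 24.3 CPM in acute mitoQ, and 2 of the DMSO pools had 488 and 1123 CPM. With replicates 3 and 6 both left out, 0 features passed the adjusted threshold and 249 had an unadjusted p under 0.05. With only replicate 3 left out the counts were 0 and 352, and with only replicate 6 left out 0 and 221. Replicate 1 changed the second count most: without it 0 features passed and 542 had an unadjusted p under 0.05.

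The features below did not pass the test. By a fixed rule they are the 12 with the smallest unadjusted p in each direction, plus, where stated, genes chosen after their values had been seen. On the side of acute 2-AAPA the 12 were mira, His-Psi:CR33802, Obp83b, His-Psi:CR33805, Obp83a, Spp, Lip1, dob, spdo, His2A:CG33808, asRNA:CR11538 and asRNA:CR44431. On the side of acute mitoQ they were CG4213, CG13920, CG14075, Zasp66, CG42390, CG34220, TotM, Act79B, mtDNA-helicase, alphaTub85E, asRNA:bsAS and CG13500. In 7 of the 24 the highest library of the higher group exceeded the next by more than 2 times. Among the 195 features higher in acute 2-AAPA at an unadjusted p under 0.05, 21 (10.8%) had this form, against 127 (1.14%) of all features tested, and replicate 6 held 10 of the 21, replicate 1 held 7, and replicates 3 and 4 held 2 each.

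With edgeR every named feature had an adjusted p of 0.9999. The smallest unadjusted p belonged to mira (3R, 19931799 to 19935120), which encodes an adaptor that places cell fate determinants in dividing neuroblasts. Its level was 0.400 CPM at the lowest, 0.667 CPM at the median and 67.8 CPM at the highest in acute 2-AAPA, against 0.511, 0.583 and 0.934 CPM in acute mitoQ and 0.413, 0.587 and 0.931 CPM in acute DMSO. The single high pool was acute 2-AAPA replicate 4, and the other 5, at 0.400 to 0.797 CPM, overlapped with the acute mitoQ pools. The log2 fold change was 4.23 (SE 1.06, unadjusted p 0.000739, edgeR), and -0.04 with replicate 4 left out. Hs6st, whose gene spans mira on the same strand, had 25.2 CPM in replicate 4 and 18.7 to 27.3 CPM over the acute 2-AAPA pools, so it did not share the high value.

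Surf6, a gene for a nucleolar protein 26930 bases from mira on 3R (19903665 to 19904868), was high in the same pool. This gene was chosen after its values were seen. It was at 156 CPM in acute 2-AAPA replicate 4 and 7.28 to 12.3 CPM in the other 5, against 7.62 to 11.4 CPM in acute mitoQ, and its log2 fold change was 1.88 (SE 0.60) with replicate 4 and 0.04 without it. Of the 15 tested members of the list of neuroblast and dividing cell markers, mira was the only one with an unadjusted p under 0.05, and pros and brat, which act with mira in neuroblasts, had log2 fold changes of 0.30 and 0.35 with intervals that included 0.

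Acute 2-AAPA replicate 1 stood out for genes of the antenna. Obp83b (3R, 5976177 to 5976817) and Obp83a (3R, 5972155 to 5975245), neighbours 931 bases apart, encode odorant-binding proteins that are secreted into the fluid around olfactory neurons. Obp83b had 0.373, 0.592 and 22.6 CPM (lowest, median and highest) in acute 2-AAPA, against 0.291, 0.480 and 0.548 CPM in acute mitoQ. Obp83a had 0.524, 0.704 and 21.6 CPM in acute 2-AAPA, against 0.493, 0.664 and 0.950 CPM in acute mitoQ. In both, replicate 1 alone was high. Their log2 fold changes of 3.22 (SE 0.85) and 2.59 (SE 0.77) became 0.25 and -0.02 with replicate 1 left out.

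Other genes had the same high pool, and apart from Lip1 they were chosen after their values had been seen. Os-C, named for its expression in olfactory tissue, had 15.5 CPM in replicate 1 and 1.47 to 2.85 CPM in the other acute 2-AAPA pools, against 0.680 to 2.19 CPM in acute mitoQ. Obp19a had 4.25 CPM in replicate 1, against 0.149 to 0.438 CPM in the rest of its group and 0 to 0.455 CPM in acute mitoQ. The gene lush, whose product is needed for the response to a male pheromone, had 6.50 CPM in replicate 1 and 2.46 to 3.27 CPM in the others, against 2.15 to 3.11 CPM in acute mitoQ. Orco, the coreceptor of olfactory neurons, did not share this, with 6.94 CPM in replicate 1 and 5.82 to 7.49 CPM over the group, against 3.94 to 8 CPM in acute mitoQ. Lip1, a lipase gene, had 9.67 CPM in replicate 1 and 0.746 to 1.04 CPM in the others, against 0.443 to 0.804 CPM in acute mitoQ, and its log2 fold change of 1.87 was 0.47 without that pool.

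Over the 32 odorant-binding protein genes tested, 0 passed the adjusted threshold, 22 had a value above 0 and the median log2 fold change was 0.15, beside 52.4% and 0.01 over all features. Without acute 2-AAPA replicate 1 the median of the list was -0.02, and leaving out 1 pool at a time left 2 to 8 members at an unadjusted p under 0.05. Obp83b, Obp69a, Obp83a, lush, Obp19a, Obp73a and Obp83g had an unadjusted p under 0.05, beside 2.52% of all features. All 7 had the higher value in acute 2-AAPA. Not all were highest in replicate 1. Obp83g had 0.367, 0.788 and 0.974 CPM in acute 2-AAPA, against 0.255, 0.485 and 0.658 CPM in acute mitoQ, with 4 of 6 pools above the highest acute mitoQ pool. Acute DMSO pools had 0.564, 0.698 and 1.08 CPM and so were level with acute 2-AAPA. The most abundant members of the family, Obp99b, Obp44a, Obp19d and Obp99c, had log2 fold changes between -0.04 and 0.31 with intervals that included 0. In bulk RNA of whole heads, fewer cells of a type and less RNA per cell cannot be told apart.

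**Figure D2:**
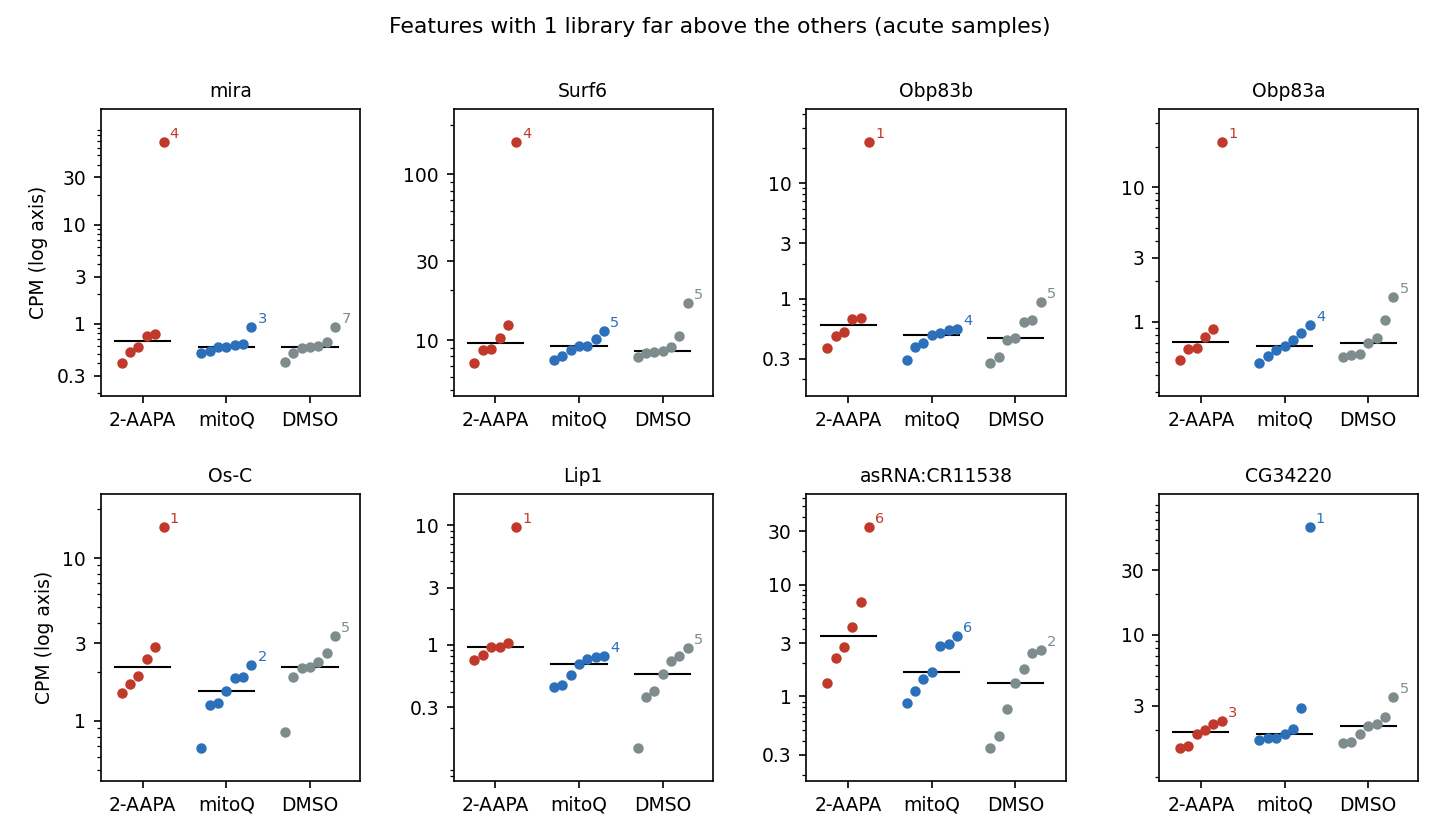
CPM on a log axis of 8 features in the acute pools, 6 fed 2-AAPA (left), 7 fed mitoQ (middle) and 7 fed DMSO (right); each point is 1 pool, the bar is the group's median and the number is the replicate of the highest pool. In mira and Surf6 acute 2-AAPA replicate 4 stands alone, in Obp83b, Obp83a, Os-C and Lip1 replicate 1, in asRNA:CR11538 replicate 6 and in CG34220 acute mitoQ replicate 1, and the remaining pools overlap.

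The last features of this form were antisense RNAs and CG34220. asRNA:CR11538, which lies on the strand opposite to Lsp2, had 32.7 CPM in acute 2-AAPA replicate 6 and 1.31 to 6.93 CPM in the other 5, against 0.874 to 3.49 CPM in acute mitoQ. Its log2 fold change of 2.02 was 0.76 without replicate 6. asRNA:CR44431, opposite to the glutathione transferase gene Mgstl, had 2.50 CPM in replicate 6 and 0.333 to 0.637 CPM in the others, against 0.146 to 0.455 CPM in acute mitoQ. The strand setting of the counting is not given in the sources used here, so reads of these RNAs and of the genes opposite cannot be told apart. CG34220 was the case in acute mitoQ, with 62.2 CPM in replicate 1 and 1.67 to 2.92 CPM in the other 6, against 1.47 to 2.32 CPM in acute 2-AAPA, and its log2 fold change of -2.47 was -0.08 without that pool.

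In the histone cluster on 2L, the pseudogenes and the His2A genes had higher values in most acute 2-AAPA pools, which did not hold for all histone genes. The pseudogene His-Psi:CR33802 (2L, 21418835 to 21419167) had 5.30, 6.86 and 8.50 CPM in acute 2-AAPA, against 1.81, 3.60 and 5.37 CPM in acute mitoQ and 1.66, 3.23 and 4.38 CPM in acute DMSO. The groups overlapped only in that the 2 lowest acute 2-AAPA pools lay below the highest acute mitoQ pool, and the log2 fold change was 0.91 (SE 0.23, unadjusted p 0.000845, edgeR). His-Psi:CR33805 followed it closely, with 4.86, 6.48 and 8.61 CPM in acute 2-AAPA and 1.85, 3.68 and 5.74 CPM in acute mitoQ.

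All 20 repeats of His2A, the gene of a core histone of the nucleosome, had log2 fold changes of 0.49 to 0.66. Each had an unadjusted p under 0.05, beside 52.4% above 0 and 2.52% at that p over all features. Single pools moved this count. Over the whole list of 115 histone genes tested, leaving out 1 pool at a time left 5 to 26 members at that p, beside 20. Without acute 2-AAPA replicate 1 the median log2 fold change of the list was -0.05, beside 0.06. The summed level of the His2A repeats was 80.7, 108.9 and 157.8 CPM (lowest, median, highest) in acute 2-AAPA, against 54.6, 77.6 and 103.0 CPM in acute mitoQ and 40.0, 61.3 and 113.3 CPM in acute DMSO. The groups overlapped. The 20 copies of sncRNA:430 each lay inside a His2A gene on the same strand wherever their position was looked up. Their log2 fold changes were 0.73 to 0.98, and 13 of them did not overlap between the groups, beside 0.179% of all features. The other histone repeats did not move with His2A: the medians were 0.07 over 23 His2B genes, 0.22 over 23 His1 genes, -0.10 over 22 His4 genes and -0.68 over 23 His3 genes, with 0 at an unadjusted p under 0.05. The copies are near-identical and reads with many locations were kept, so neither their separate values nor their number is a count of independent genes, and reads of sncRNA:430 cannot be told apart from those of His2A.

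Only 20 features (0.179%) had groups that did not overlap at all, 16 of them (0.143%) higher in acute 2-AAPA. Besides the 13 sncRNA:430 copies these were Scsalpha1, Eglp4 and CG4080, and lower in acute 2-AAPA were slbo, RPA1, FBgn0030646 and mtDNA-helicase; apart from mtDNA-helicase, they were named after their values were seen. Scsalpha1, a subunit of succinyl-CoA ligase in the citric acid cycle, had 314, 320 and 333 CPM in acute 2-AAPA, against 279, 296 and 301 CPM in acute mitoQ. Its log2 fold change was 0.14 (95% interval 0.02 to 0.26). Eglp4, of the aquaporin family, had 407, 444 and 470 CPM in acute 2-AAPA, against 313, 370 and 400 CPM in acute mitoQ. For both, DMSO pools spread over the values of the drug groups (269 to 353 CPM for Scsalpha1 and 276 to 660 CPM for Eglp4).

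mtDNA-helicase, the helicase of mitochondrial DNA replication, had 2.55, 3.37 and 3.48 CPM in acute 2-AAPA, against 3.50, 3.81 and 4.84 CPM in acute mitoQ and 3.22, 4.02 and 4.71 CPM in acute DMSO. Every acute 2-AAPA pool lay below every acute mitoQ pool, although the closest were 3.48 and 3.50 CPM. The log2 fold change was -0.33 (SE 0.11). slbo, a C/EBP transcription factor, had 0.916, 1.39 and 1.48 CPM in acute 2-AAPA, against 1.5, 1.66 and 1.92 CPM in acute mitoQ.

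Spp and dob were the most abundant of the 12 features on the side of acute 2-AAPA. Spp, a signal peptide peptidase of the endoplasmic reticulum (2L, 542786 to 544653), had 46.7, 49.2 and 53.0 CPM in acute 2-AAPA, against 39.5, 43.9 and 47.5 CPM in acute mitoQ and 40.6, 43.6 and 47.6 CPM in acute DMSO. All but 1 acute 2-AAPA pool lay above all acute mitoQ pools, and the log2 fold change was 0.19 (95% interval 0.07 to 0.31). dob, a relative of the triglyceride lipase brummer, had 34.6, 49.1 and 55.3 CPM in acute 2-AAPA, against 33.9, 37.5 and 44.1 CPM in acute mitoQ, with 5 of 6 pools above the highest acute mitoQ pool and replicate 1 the lowest of its group. spdo, a regulator of Notch, was near the limit of detection, with 0.472, 0.592 and 0.852 CPM in acute 2-AAPA, against 0.227, 0.385 and 0.519 CPM in acute mitoQ.

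Among the genes with the lower value in acute 2-AAPA, Zasp66 and Act79B encode parts of the muscle sarcomere. Zasp66, a protein of the Z-disc (3L, 8624371 to 8638813), had 193, 208 and 255 CPM in acute 2-AAPA, against 212, 244 and 304 CPM in acute mitoQ and 199, 233 and 238 CPM in acute DMSO. Act79B, a muscle actin of the adult thorax and legs (3L, 21985210 to 21987190), had 25.7, 28.1 and 60.5 CPM in acute 2-AAPA, against 26.4, 54.0 and 94.4 CPM in acute mitoQ and 23.7, 26.3 and 33.9 CPM in acute DMSO. Acute 2-AAPA replicate 6 was the single high pool of its group, and acute mitoQ replicates 3 and 5 to 7 lay at 54.0 CPM or above, while replicate 1 was at the level of DMSO. The log2 fold changes were -0.26 (SE 0.08) and -0.72 (SE 0.25), and in both genes the groups overlapped.

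Across the list of flight muscle and thorax genes, 0 of 15 tested passed the adjusted threshold, 11 had a value below 0 and the median log2 fold change was -0.07. Over all features 52.4% had a value above 0, and the median was 0.01. Act79B and Zasp66, already named above, were the only members with an unadjusted p under 0.05, beside 2.52% of all features. The summed level of the list was 3799, 3880 and 4415 CPM in acute 2-AAPA, against 3875, 4292 and 4442 CPM in acute mitoQ and 3666, 3905 and 4367 CPM in acute DMSO. Its most abundant members, Mhc, Mlc2, sls and up, had log2 fold changes between -0.22 and 0.05, with intervals that included 0. CheA75a, of a family of gustatory proteins and chosen after its values were seen, had 0, 0.275 and 1.38 CPM in acute 2-AAPA with replicate 6 the highest, against 0, 1.83 and 4.13 CPM in acute mitoQ with replicate 7 the highest, so its highest pools were those of Act79B. The part of attached body tissue in these values was not tested.

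The remaining features on the side of acute mitoQ had small differences or low counts. CG42390 had 145, 151 and 166 CPM in acute 2-AAPA, against 156, 177 and 185 CPM in acute mitoQ. CG13920 had 53.5, 57.6 and 64.5 CPM in acute 2-AAPA, against 59.1, 66.2 and 72.3 CPM in acute mitoQ. CG4213 had 8.36, 9.57 and 12.2 CPM in acute 2-AAPA, against 10.4, 11.9 and 13.6 CPM in acute mitoQ. In these genes 4 or 5 of the 6 acute 2-AAPA pools lay below every acute mitoQ pool, and the log2 fold changes were -0.17, -0.19 and -0.31. asRNA:bsAS, an antisense RNA, had 2.11 to 2.76 CPM in acute 2-AAPA and 2.58 to 3.34 CPM in acute mitoQ. alphaTub85E, an alpha-tubulin, CG14075 and CG13500 stayed under 1 CPM in every acute 2-AAPA pool, with medians of 0.268, 0.393 and 0.210 CPM there and of 0.539, 0.655 and 0.402 CPM in acute mitoQ, and the groups overlapped in each.

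TotM belongs to the Turandots, small secreted peptides that the fat body makes under stress and infection. TotM (2L, 5329857 to 5330464) had 5.41, 7.75 and 11.8 CPM in acute 2-AAPA, against 4.64, 35.1 and 100.0 CPM in acute mitoQ and 5.55, 19.4 and 249 CPM in acute DMSO. The acute 2-AAPA pools all lay at the low end of the range of the other groups, and 5 of 7 acute mitoQ pools lay at 31.8 CPM or above. The log2 fold change was -2.40 (SE 0.84, unadjusted p 0.00947, edgeR), and -2.01 with acute mitoQ replicate 7 left out.

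The other Turandots did not follow one pattern, and only TotX besides TotM had an unadjusted p under 0.05. TotC had 54.5, 96.2 and 117 CPM in acute 2-AAPA, against 56.4, 130 and 352 CPM in acute mitoQ, with the highest values in the acute mitoQ pools that were highest in TotM (log2 fold change -0.90, 95% interval -1.88 to 0.08). TotA averaged 242 ± 114 CPM in acute 2-AAPA and 319 ± 148 CPM in acute mitoQ (SD). TotX ran the other way, with 1.07, 3.41 and 30 CPM in acute 2-AAPA, against 1.06, 2.65 and 6.09 CPM in acute mitoQ. Its high pools were acute 2-AAPA replicates 2 and 6, with raw counts of 615 and 804. Acute DMSO replicates 1 and 2 were high too, with raw counts of 270 and 850, against 36 to 84 in the other DMSO pools. The same pools of both groups were high in RpL38 and UQCR-11. Of the other immune genes, 0 of 11 antimicrobial peptides, 0 of 13 Bomanins and 0 of 10 peptidoglycan recognition proteins had an unadjusted p under 0.05. Over all features the share was 2.52%, so counts of 0 in lists this short say little. The median log2 fold changes of these lists were 0.43, 0.17 and 0.03, and the median half-widths of the 95% interval were 1.39, 0.67 and 0.28. Without acute 2-AAPA replicate 2 the median of the antimicrobial peptides was 0.18, and without acute 2-AAPA replicate 1 that of the recognition proteins was -0.02.

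Storage proteins and sugar-digesting enzymes had higher values in several acute 2-AAPA pools, and these genes were chosen after their values were seen. Lsp2 (3L, 12129393 to 12131869), a hexamerin that stores amino acids in the fat body, had 699, 1475 and 2916 CPM in acute 2-AAPA, against 405, 635 and 1299 CPM in acute mitoQ and 128, 902 and 1186 CPM in acute DMSO. Replicates 2, 5 and 6 of acute 2-AAPA lay above all acute mitoQ pools, and replicates 1, 3 and 4 overlapped with them. The log2 fold change was 1.15 (SE 0.40, unadjusted p 0.00921, edgeR), and 0.92 with acute 2-AAPA replicate 2 left out. Lsp1alpha, another hexamerin, had its highest values in the same 3 pools (67.8, 55.5 and 35.6 CPM in replicates 2, 5 and 6), against 5.46, 10.3 and 37.1 CPM (lowest, median, highest) in acute mitoQ, where replicate 6 alone was high.

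The glucosidase gene tobi, a target of insulin and sugar signalling, had 98.8, 277 and 418 CPM in acute 2-AAPA, against 113, 141 and 237 CPM in acute mitoQ and 49.9, 152 and 252 CPM in acute DMSO. Replicate 1 was the lowest pool of acute 2-AAPA, and 4 of 6 lay above all acute mitoQ pools. The amylase genes Amy-p and Amy-d, near-identical copies whose reads can be divided between them, had log2 fold changes of 0.68 and 0.66, with 36.2 CPM of Amy-p in replicate 1 and 61.5 to 124 CPM in the other acute 2-AAPA pools, against 28.9 to 85.2 CPM in acute mitoQ.

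Over the list of larval serum and fat body proteins, 0 of 11 tested passed the adjusted threshold, 9 had a value above 0, the median log2 fold change was 0.38, and Lsp2, Lsp1alpha and Yp2 had an unadjusted p under 0.05, beside 52.4% above 0 and 2.52% at that p over all features. Without acute 2-AAPA replicate 3, the pool with the high yolk protein values, the median was 0.14. Its most abundant members to, Tsf1 and apolpp had log2 fold changes of 0.12, 0.31 and 0.43, with intervals that included 0. Over the list of sugar and fasting response genes, 0 of 25 passed, 18 had a value above 0 and the median was 0.05. The list of midgut markers, which holds both amylases, had a summed level of 216, 421 and 488 CPM in acute 2-AAPA, against 230, 293 and 376 CPM in acute mitoQ, and the maltase genes Mal-A5 and Mal-A1 had log2 fold changes of 0.03 and 0.01, with intervals that included 0. The part of gut tissue in these values was not tested.

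**Figure D3:**
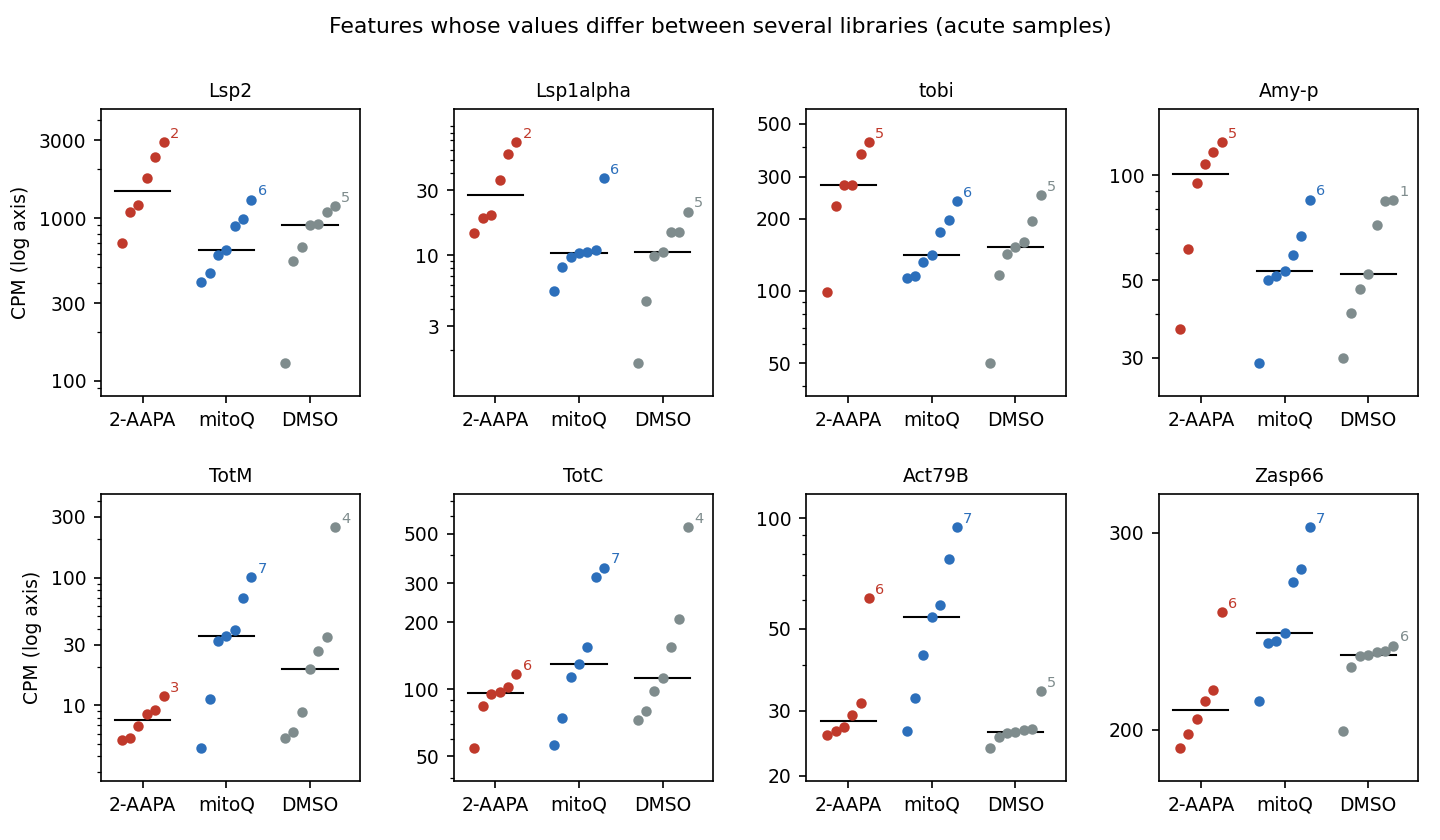
CPM on a log axis of 8 features in the acute pools, 6 fed 2-AAPA (left), 7 fed mitoQ (middle) and 7 fed DMSO (right); each point is 1 pool, the bar is the group's median and the number is the replicate of the highest pool. The upper row (Lsp2, Lsp1alpha, tobi, Amy-p) has the higher median in acute 2-AAPA and the lower row (TotM, TotC, Act79B, Zasp66) in acute mitoQ, and in all 8 the groups overlap.

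The genes of glutathione and thioredoxin, the systems on which 2-AAPA acts, had log2 fold changes of -0.09 to 0.30. Their 95% intervals reached as far as 0.74 from 0. Of the 21 genes listed for glutathione and thioredoxin, 17 were tested, 0 passed the adjusted threshold, 10 had a value above 0 and the median log2 fold change was 0.02 (-0.03 to 0.05 with 1 pool left out at a time). Over all features 52.4% had a value above 0, and the median was 0.01. Trxr1 had 228, 269 and 287 CPM in acute 2-AAPA, against 246, 268 and 290 CPM in acute mitoQ, with a log2 fold change of -0.02 (95% interval -0.20 to 0.15). The peroxidases Prx2 and Prx5, which use thioredoxin to reduce peroxides, had 303 ± 7.40 and 277 ± 39.9 CPM in acute 2-AAPA, against 291 ± 30.9 and 286 ± 32.4 CPM in acute mitoQ (SD). Gss2, a glutathione synthetase whose reads may be divided with its near-identical neighbour Gss1, had 227 ± 22 CPM in acute 2-AAPA and 224 ± 9.51 CPM in acute mitoQ. Gclc and Gclm, the subunits of the enzyme that limits glutathione synthesis, had log2 fold changes of 0.04 and 0.11.

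The member with the smallest p was Prx4, the peroxiredoxin of the endoplasmic reticulum, named after its values were seen. It had 8.70, 9.26 and 9.85 CPM in acute 2-AAPA, against 7.16, 8.12 and 8.88 CPM in acute mitoQ, with 5 of 6 pools above the highest acute mitoQ pool. The log2 fold change was 0.21 (95% interval 0.01 to 0.41, unadjusted p 0.0427, edgeR). The intervals of Prx6b and Prx6c, paralogs that may share reads, were the only ones of the 17 that reached beyond 1.5-fold.

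Among 13 further antioxidant genes and their regulators, 0 had an unadjusted p under 0.05, 7 had a value above 0 and the median log2 fold change was 0.02. Over all features these were 2.52%, 52.4% and 0.01, so the list did not stand apart from them. Sod1, the cytosolic superoxide dismutase, had 356, 389 and 489 CPM in acute 2-AAPA, against 347, 401 and 473 CPM in acute mitoQ. Cat, the catalase that breaks down hydrogen peroxide, had 267, 306 and 339 CPM in acute 2-AAPA, against 255, 271 and 301 CPM in acute mitoQ and 225, 259 and 324 CPM in acute DMSO. For Cat 4 of 6 acute 2-AAPA pools lay above the highest acute mitoQ pool, with a log2 fold change of 0.15 (95% interval -0.01 to 0.30). Pink1, a kinase of mitochondrial quality control, and Irc, an immune-regulated catalase, had log2 fold changes of -0.08 and 0.08, with intervals that included 0. cnc, the regulator of antioxidant genes, and Keap1, its inhibitor, had values of 0.19 and 0.05.

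**Figure D4:**
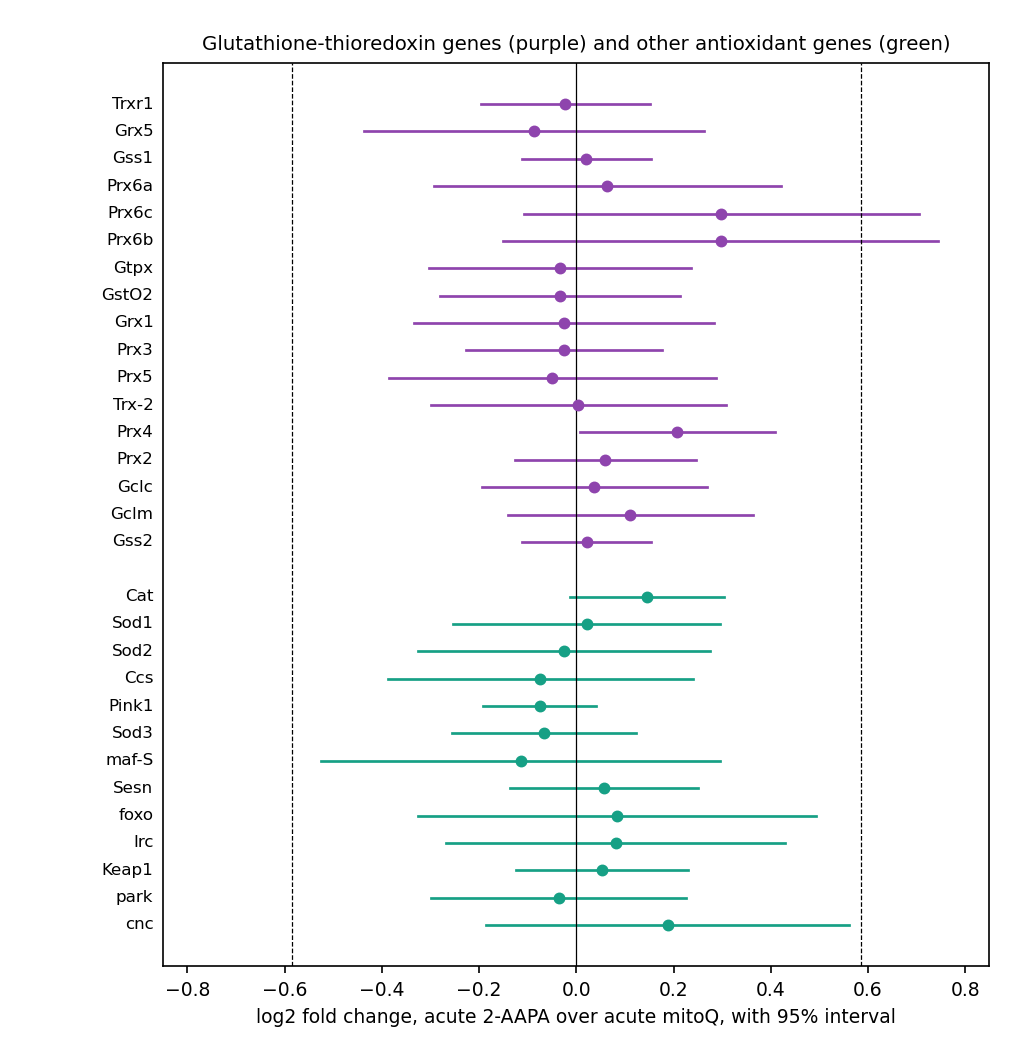
Log2 fold change (acute 2-AAPA over acute mitoQ, 6 against 7 pools) with its 95% interval from edgeR for 17 genes of the glutathione and thioredoxin systems (upper) and 13 other antioxidant genes and regulators (lower); dashed lines mark 1.5-fold in either direction. Only the interval of Prx4 leaves out 0, and only those of Prx6b and Prx6c cross a dashed line.

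Detoxification genes had few values apart from 0. Beside the counts that follow, 52.4% of all features had a value above 0 and 2.52% an unadjusted p under 0.05. Of 33 glutathione S-transferases tested, which join glutathione to foreign and oxidized molecules, 19 had a value above 0, the median log2 fold change was 0.00, and GstO1, GstZ1 and GstE10 had an unadjusted p under 0.05. The abundant GstE12 and GstD1 had log2 fold changes of 0.00 and 0.00. Of 77 cytochrome P450 genes 49 had a value above 0 (median 0.05) and 1 an unadjusted p under 0.05, and of 23 UDP-glycosyltransferases 19 had a value above 0 (median 0.08) and 2 an unadjusted p under 0.05. One of them, Ugt301D1, had 27.4, 34.1 and 37.0 CPM in acute 2-AAPA, against 23.8, 27.2 and 31.2 CPM in acute mitoQ, a log2 fold change of 0.25 (SE 0.08).

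Mitochondrial lists gave many small values of 1 sign. Of 71 nuclear-encoded subunits of the respiratory chain tested, 66 had a value below 0, with a median of -0.05 and a median half-width of the interval of 0.34, and the abundant ATPsynC, ATPsynbeta, blw and UQCR-C1 had log2 fold changes of -0.03, -0.03, -0.01 and -0.05. The summed level of this list was 16752, 17629 and 22728 CPM in acute 2-AAPA, against 16653, 19321 and 22469 CPM in acute mitoQ, so the ranges overlapped. Of 71 mitochondrial ribosomal proteins, 66 had a value below 0 (median -0.06). Cytosolic ribosomal proteins had the same sign in 64 of 81 (median -0.03). Over all features 52.4% had a value above 0. Single pools moved these medians. Without acute 2-AAPA replicate 1 they were -0.16 for the respiratory chain, -0.18 for mitochondrial and -0.13 for cytosolic ribosomal proteins. Without acute mitoQ replicate 5 they were -0.01, -0.01 and 0.02, so the last turned sign. Members of a list come from the same pools, so these counts do not stand for independent replicates.

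UQCR-11 was the exception in the respiratory chain, and RpL38 in the ribosome. UQCR-11, a subunit of complex III, had 1.44, 13.5 and 74.5 CPM in acute 2-AAPA, against 1.77, 5.90 and 8.69 CPM in acute mitoQ. RpL38 had 8.04, 32.0 and 290 CPM in acute 2-AAPA, against 12.8, 21.8 and 25.0 CPM in acute mitoQ. Both were highest in acute 2-AAPA replicates 2 and 6 and in acute DMSO replicates 1 and 2, the pools in which FBgn0085364 was also high, and acute 2-AAPA replicate 1 lay between these and the rest. Their log2 fold changes of 2.36 and 2.46 became 1.72 and 1.87 with replicate 6 left out.

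Of the 13 mRNAs of the mitochondrial genome, 11 had a value above 0, with a median of 0.20 and 0 at an unadjusted p under 0.05, beside 52.4% above 0 over all features. Without acute 2-AAPA replicate 6, the pool of 13 heads with the highest mitochondrial share, the median was 0.04. In these poly-A libraries their summed level was 241, 279 and 634 CPM in acute 2-AAPA, against 172, 253 and 283 CPM in acute mitoQ. mt:CoI, which encodes a subunit of cytochrome c oxidase, had 72.9, 91.8 and 367 CPM in acute 2-AAPA, against 65.5, 82.0 and 97.8 CPM in acute mitoQ, and acute DMSO reached 802 CPM. Its log2 fold change was 1.06 (95% interval -0.07 to 2.19). The 10 genes of coenzyme Q synthesis, whose product mitoQ resembles, had values between -0.09 and 0.02.

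Of 14 genes of the unfolded protein response and of ATF4 signalling, 0 passed the adjusted threshold, 9 had a value above 0, and the median log2 fold change was 0.02, beside 52.4% and 0.01 over all features. An unadjusted p under 0.05 was found for 4 of them, beside 2.52% of all features. The chaperone Hsc70-3 had 444, 522 and 576 CPM in acute 2-AAPA, against 420, 449 and 484 CPM in acute mitoQ. CaBP1, a disulfide isomerase, had 50.3, 55.8 and 61.0 CPM in acute 2-AAPA, against 41.5, 48.7 and 52.6 CPM in acute mitoQ. The cochaperone P58IPK had 63.1, 67.5 and 74.0 CPM in acute 2-AAPA, against 53.1, 58.7 and 65.6 CPM in acute mitoQ. In each, 3 to 5 of the 6 acute 2-AAPA pools lay above every acute mitoQ pool, and the log2 fold changes were 0.19, 0.22 and 0.19. These 3 were named after their values were seen. Gp93, another chaperone of the endoplasmic reticulum, had a log2 fold change of 0.14 (95% interval -0.02 to 0.30). Thor, an inhibitor of translation, had 131, 145 and 157 CPM in acute 2-AAPA, against 144, 170 and 180 CPM in acute mitoQ, a log2 fold change of -0.20. The transcription factors crc (ATF4) and Xbp1 had log2 fold changes of 0.01 and 0.01.

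**Figure D5:**
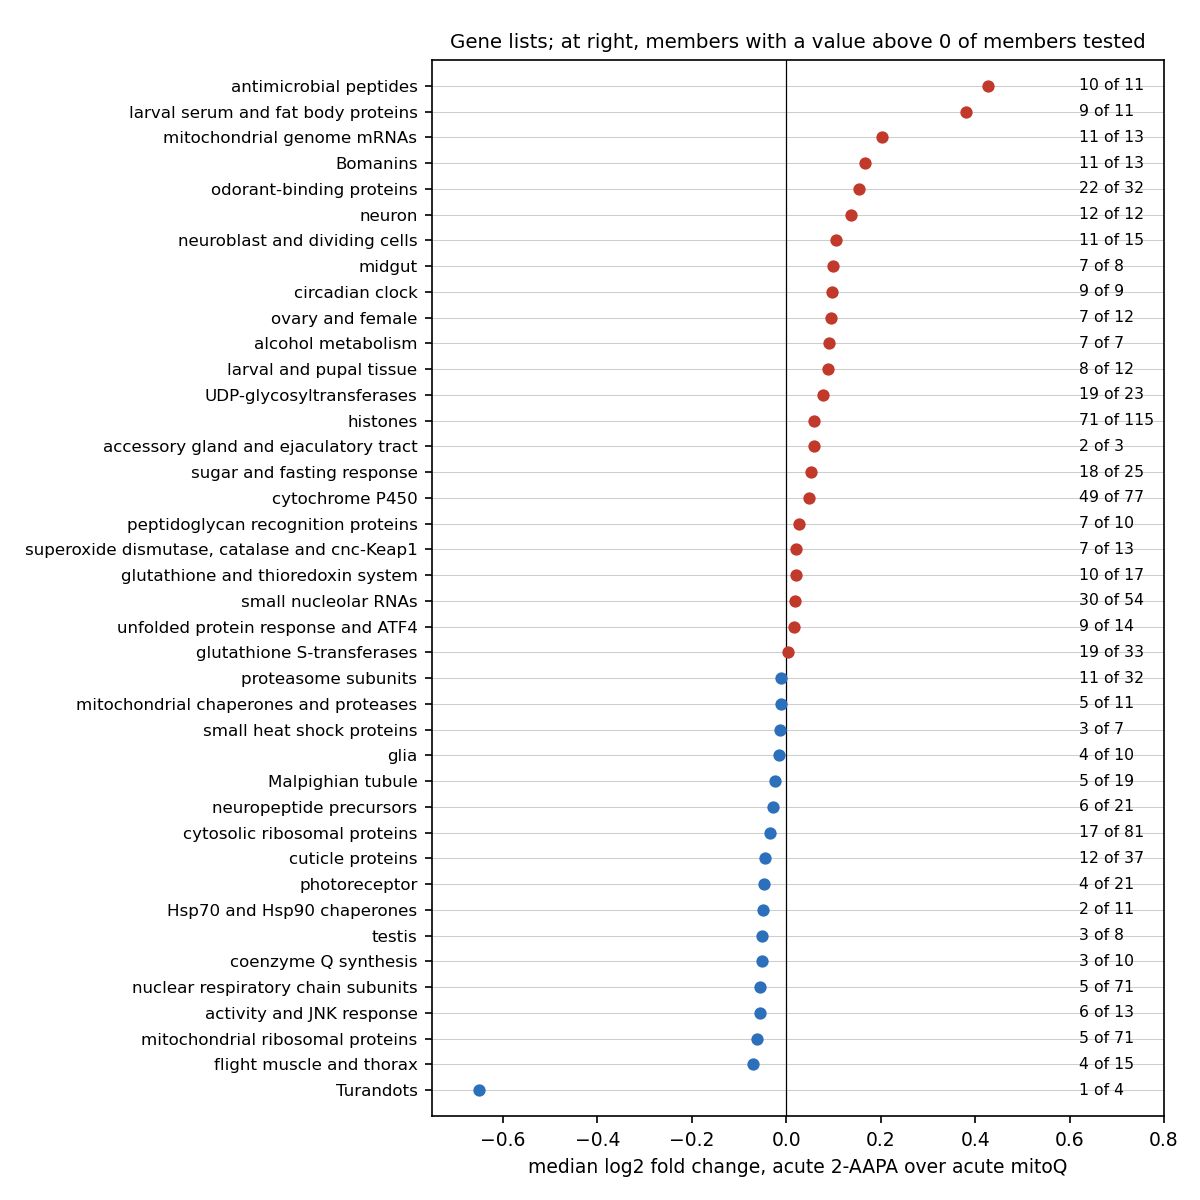
Median log2 fold change (acute 2-AAPA over acute mitoQ, 6 against 7 pools) over the tested members of each of 40 gene lists, red above 0 and blue below, with the number of members above 0 of the members tested at the right. Most medians lie within 0.2 of 0; the lists beyond it are antimicrobial peptides, larval serum and fat body proteins, mitochondrial genome mRNAs and Turandots, and 0 members of any list passed the adjusted threshold.

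Lists of head cell types overlapped in level between the groups. Beside the counts that follow, 52.4% of all features had a value above 0, with a median of 0.01. The 12 neuron markers all had values above 0, with a median of 0.14 and 0 at an unadjusted p under 0.05, and a summed level of 2959, 3146 and 4012 CPM in acute 2-AAPA, against 2821, 2894 and 3380 CPM in acute mitoQ and 2778, 3296 and 4065 CPM in acute DMSO. Without acute 2-AAPA replicate 6 the median of the neuron markers was 0.08. Of 21 neuropeptide precursors, 15 had a value below 0 and 6 above (median -0.03). Of 21 photoreceptor genes 17 had a value below 0 (median -0.05), and of 10 glial genes 6 (median -0.01). The 9 clock genes all had a value above 0 (median 0.10), as did 7 genes of alcohol metabolism (median 0.09), a list included because ethanol is the solvent listed for mitoQ. Adh had 5257 ± 610 CPM in acute 2-AAPA and 4939 ± 614 CPM in acute mitoQ (SD). Transposable element families had a value above 0 in 144 of 175 tested, with a median of 0.14. An unadjusted p under 0.05 was found for 3 of these families, beside 2.52% of all features.

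The same drugs were compared in separate flies fed for 10 days (7 pools of chronic 2-AAPA, 6 of chronic mitoQ). There 0 of 11049 features (0%) passed the adjusted threshold and 1672 (15.1%) had an unadjusted p under 0.05. Of the 24 features named above, 21 were tested in those flies, 4 had the same sign as after 24 h, and 0 had an unadjusted p under 0.05. Log2 fold changes after chronic feeding were -0.16 for mira, 0.45 for Obp83b, 0.30 for Obp83a, -0.03 for Spp, 1.21 for TotM, 0.22 for Act79B, -0.31 for Lsp2 and 0.07 for Zasp66. The difference between the acute and the chronic contrast, tested in 1 model of the 26 pools, passed the adjusted threshold for 0 of 11307 features (0%), and 807 (7.14%) had an unadjusted p under 0.05.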

How the data were processed

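The series holds poly-A RNA libraries of 40 head pools, and the 20 acutely fed pools entered the model. The authors used the nf-core pipeline for RNA-seq with the BDGP6 genome, keeping reads with many locations, counted genes with featureCounts and transposable element families with TEcount, and deposited raw counts per feature (17558 genes and 226 families). The library kit was directional, and the strand setting of the counting is not given in the sources used here. Groups came from the sample labels.

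All values were computed in R 4.3.3. edgeR 4.0.16 was used with TMM factors, filterByExpr, estimateDisp, robust glmQLFit and the quasi-likelihood F test in a model of acute 2-AAPA, acute mitoQ and acute DMSO, with Benjamini-Hochberg adjustment over all features and a threshold of 0.05. The 3 groups shared 1 estimate of spread per feature. CPM were scaled by the TMM factors, and per-sample log2 CPM used a prior count of 2. The SE was the size of the log2 fold change divided by the square root of F, and intervals are 95%. Only the fit of the acute contrast was tested on simulated counts, in which no single pool was set far above the others. The chronic fit and the fit of the difference between acute and chronic feeding were not simulated. Since nothing in the labels says how flies were divided into pools, p-values measure the spread between pools.

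Named features were those past the threshold or, as none passed, the 12 with the smallest p in each direction, up to 4 of the most abundant members of a described list, and the 5 features highest in acute 2-AAPA replicates 3 and 6. Members and lists were chosen with earlier results of these data known. List symbols were matched to the names in the table. Positions follow Ensembl's annotation of BDGP6, which held 17252 of the 17558 gene identifiers, 97.6% of them with the exonic length of the deposited table. Alternatives were DESeq2 1.42.0, its size factors, no filter, a replicate block, a fold change over 1.5, other sample sets, the ribosomal share as a covariate, and the study's own pipeline rebuilt with limma 3.58.1. The rebuilt pipeline used all 40 pools, whereas the study removed outlying samples and normalized again. Leaving out acute DMSO replicate 5, or acute 2-AAPA replicates 1 and 4, was chosen after seeing the data.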

Additional observations from a re-analysis of the deposited data

Results flagged for a closer look

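In each group of 6 or 7 pools, the highest and the lowest value of the 5 technical measures and of the named features was set against the rest. Of 136 groups of values, 18 (13.2%) held a pool far from the others by Dixon's test at the 95% level, which chance gives in about 5% of groups, and none of the technical measures was among them. Several of these features were named because of such a pool.

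Acute 2-AAPA replicate 1 was the high pool for Obp83b (22.6 CPM), Obp83a (21.6 CPM), Os-C (15.5 CPM), Lip1 (9.67 CPM), lush (6.50 CPM), Obp19a (4.25 CPM) and sncRNA:430o (3.27 CPM). Replicate 4 was the high pool for mira (67.8 CPM) and Surf6 (156 CPM). Replicate 6, the pool of 13 heads, was the high pool for asRNA:CR11538 (32.7 CPM), asRNA:CR44431 (2.50 CPM) and Act79B (60.5 CPM). Replicate 2 was the low pool for mtDNA-helicase (2.55 CPM).

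In acute mitoQ, replicate 1 was the high pool for CG34220 (62.2 CPM), replicate 3 for mira (0.934 CPM) and TotX (6.09 CPM), and replicate 6 for Lsp1alpha (37.1 CPM) and GstO1 (13.1 CPM). The value of mira there lies close to the other acute mitoQ pools, which were nearly level. Head numbers beside these pools were 19 for acute 2-AAPA replicate 1, 13 for replicate 6 and 20 for the others. The part of head number in any of them was not tested.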

How the results depend on the processing

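Over all alternatives, 0 features passed the adjusted threshold between acute 2-AAPA and acute mitoQ, except for 2 with the pipeline of the study (CG31792 and asRNA:CR43470, both under 1 CPM in all 13 pools and below the filter on low counts). That pipeline was run here on all 40 pools, without the study's removal of outlying samples. The paper itself reported no gene that differed by drug after correction for feeding schedule. The features at an unadjusted p under 0.05 numbered 596 of 17098 with no filter and 452 with only the 13 pools compared, beside 282. They numbered 439 without acute DMSO replicate 5 and 509 without acute 2-AAPA replicates 1 and 4. The pipeline of the study gives a Tukey p, already adjusted for the comparisons among all groups. By that p 24 of 17430 features were under 0.05, a count that cannot be set beside the 282. Leaving out 1 pool at a time left 0 called each time, with 199 to 542 at an unadjusted p under 0.05. DESeq2 called 237 features after chronic feeding, where edgeR called 0, and 1 for the difference between acute and chronic feeding; leaving out 1 pool at a time left 0 called in both with edgeR. The cause was not tested. Replicate numbers did not pair the pools (correlations of same-numbered deviations -0.31 to 0.34), and with a replicate block 0 features were called in all 3 comparisons, with 206 at an unadjusted p under 0.05 in the acute one.

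Changes of sign were confined, among the 1798 values recomputed for 75 genes, to 23 values of 9 genes. blw was 0.0013 with the replicate block. Without acute 2-AAPA replicates 3 and 6, Trxr1 was 0.010 and blw 0.011. Without replicates 1 and 4, Obp83a was -0.12, Surf6 -0.074, Gss2 -0.046 and Sod1 -0.071. With the pipeline of the study, Gss2 was -0.0070 and Sod1 -0.011. Leaving out 1 pool at a time gave -0.042 to 4.48 for mira, -0.019 to 2.84 for Obp83a, -0.066 to 0.015 for Trxr1, -0.025 to 0.063 for Gss2, -0.060 to 0.066 for Sod1, -0.0041 to 0.13 for Irc, -0.13 to 0.014 for ATPsynC and -0.048 to 0.014 for blw. Intervals were wider for features under 10 CPM, and the part of depth in this was not tested.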

Other observations

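The principal components of the 20 acute pools did not order them by drug. The first component (31.0% of the variance) placed acute 2-AAPA replicates 2 and 6 and acute DMSO replicates 1 and 2 together, at -31.5 to -29.6, against -16.8 to 16.6 for the 7 acute mitoQ pools. These 4 pools shared high levels of FBgn0085364 (488 to 1123 CPM), RpL38 (266 to 450 CPM), UQCR-11 (47.5 to 90.9 CPM) and CG17883 (35.6 to 49.6 CPM), chosen after their values were seen, against at most 24.3 CPM of FBgn0085364, 25 CPM of RpL38, 8.69 CPM of UQCR-11 and 10.3 CPM of CG17883 in acute mitoQ. Acute 2-AAPA replicate 1 lay between, with 50.5 CPM of RpL38. The pools came from both a drug group and the vehicle group.

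Acute 2-AAPA replicate 4 had the most features at least 4-fold below the median of its group (124), and acute DMSO replicate 6 had 98, where acute mitoQ pools had 6 to 21.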
